A study of Homo sapiens with 11 samples.

Results

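The libraries labelled Sox2 were compared with the libraries labelled GFP, across all genes of the deposited table that passed a filter on low values. The labels put 2 Sox2 and 3 GFP libraries in these groups, 5 of the 11 libraries of the series. A gene entered the tests when at least 2 of the 11 libraries had a value of 10 or more, which kept 18828 of the 60605 listed features. All groups were stable lines of ARPE-19, an established human retinal pigment epithelium (RPE) cell line, in which an open reading frame had been expressed for 4 days before polyA RNA was sequenced. The control line carried GFP, a fluorescent protein. The Sox2 line carried Sox2 alone, and the other lines carried Oct4 alone, Klf4 alone or Oct4, Sox2 and Klf4 together (OSK), with 2 libraries each. The library names of these lines also hold the letters mC, which the GFP names do not. What mC stands for is not given here, and a difference it made cannot be told apart from that of Sox2. The labels give neither the species of the reading frame, nor the promoter or vector, nor whether a line was a clone or a pool, nor whether replicates were separate cultures, so p-values measure only the spread between these libraries.

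SOX2 is a transcription factor with an HMG box, a domain that binds short A/T-rich DNA and bends it. It keeps pluripotent cells and neural progenitors undifferentiated, and in the developing eye it marks neural retina rather than pigment epithelium. The pigment epithelium is the pigmented sheet behind the photoreceptors. Its identity rests on MITF, OTX2 and PAX6, and it makes melanin, recycles retinoids, takes up shed photoreceptor tips and lays down a basement membrane.

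Values are the submitters' normalised counts, in which 1 read had a fixed value per library, so that reads could be counted back. The 5 libraries held between 15053300 and 19791775 reads, and 3 reads corresponded to 2.57 to 3.37 normalised counts in each. GFP replicate 1 stood apart: it listed 42956 features above 0, against 26448 and 26509 in the other GFP libraries and 25864 and 26971 in the Sox2 libraries, and it held reads of 59.88% of 860 features named as olfactory receptors, against 6.40% to 6.98% in the other 4. Each result is therefore also given without GFP replicate 1 where that changed a call or moved a value by over 1.5 times. The RPE label was met in part. GFP libraries held MITF at 3263, 3354 and 3602 normalised counts and TYRP1 at 2168, 2491 and 2813, whereas RPE65, the retinoid isomerase of mature RPE, was at 0.99, 0 and 0 and was not tested.

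SOX2 transcripts checked the label first. SOX2 was at 82.4, 59.7 and 43.7 normalised counts in the 3 GFP libraries and at 29106 and 29141 in the Sox2 libraries (log2 change 8.90, SE 0.18; limma adjusted p = 2.98e-14). The table does not separate transcripts of the cells' own gene from those of the introduced reading frame. POU5F1, which encodes OCT4, was at 276, 252 and 262 in GFP and 282 and 174 in Sox2 (log2 change -0.25, SE 0.17; limma adjusted p = 0.251), and the groups overlapped. POU5F1 was called lower without Sox2 replicate 1 (log2 change -0.60, limma adjusted p = 0.0102) and not without Sox2 replicate 2. KLF4 was at 124, 45.5 and 46.7 in GFP and 101 and 78.8 in Sox2, and the groups overlapped because GFP replicate 1 was the highest of the 5. With that library KLF4 did not pass (limma adjusted p = 0.212), and without it the log2 change was 0.94 (limma adjusted p = 2.61e-07).

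Of the 18828 genes tested, 7824 (41.6%) passed an adjusted p of 0.05 in limma. Of these, 4080 (21.7% of genes tested) were higher in the Sox2 line and 3744 (19.9%) were lower, and the median log2 change over all genes was -0.02. Among the called genes, 1136 were at least 2-fold higher and 1438 at least 2-fold lower, and 105 and 201 passed 8-fold. Both Sox2 libraries lay above all 3 GFP libraries for 5786 genes (30.7%) and below them for 5520 (29.3%). Among genes with at most 3 reads in every GFP library, 26 were called higher, and among genes with at most 3 reads in both Sox2 libraries, 181 were called lower. Without GFP replicate 1, 7948 genes passed, of which 7261 were called in the same direction as before and 0 in the opposite one.

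Apart from SOX2, the genes that rose most were IL7R, CALHM4, CALHM5, ACE and TLR4. IL7R, the alpha chain of the interleukin 7 receptor of lymphocytes, was at 15.9, 0 and 0.97 normalised counts in GFP and 3192 and 2754 in Sox2 (log2 change 9.85, SE 0.76; limma adjusted p = 3.77e-08). Both Sox2 libraries were high, and the only GFP library with more than 1 read was replicate 1, without which IL7R was at least 999-fold higher. Without GFP replicate 2 its log2 change was 9.01. CALHM4, a member of the calcium homeostasis modulator family of large-pore channels, was at 0, 0 and 0 in GFP and 435 and 506 in Sox2, at least 158-fold higher (limma adjusted p = 9.04e-08). CALHM5, its neighbour on chromosome 6, was at 4.97, 1.01 and 3.89 in GFP and 509 and 554 in Sox2 (log2 change 7.10, SE 0.54; limma adjusted p = 3.15e-08). The groups were far apart for both, whereas CALHM2, a family member on another chromosome, overlapped between them at 66.5, 95.1 and 124 in GFP and 79.7 and 76.2 in Sox2, and CALHM6 had no library above 3 normalised counts.

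ACE, the peptidase that makes angiotensin II and degrades bradykinin, was at 36.7, 1.01 and 4.86 normalised counts in GFP and 729 and 1509.6 in Sox2 (log2 change 7.10, SE 0.82; limma adjusted p = 3.1e-06). Replicate 2 was the higher Sox2 library, and neither overlapped with GFP. The log2 change of ACE was 8.26 without GFP replicate 1 and 6.14 without GFP replicate 2. TLR4, the receptor for bacterial lipopolysaccharide, was at 41.7, 32.4 and 21.4 in GFP and 3967 and 3476 in Sox2 (log2 change 6.87, SE 0.24; limma adjusted p = 5.2e-12). CD14, the co-receptor that loads TLR4, stayed between 1.71 and 8.75 in these 5 libraries and was not tested.

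The remaining 6 of the 12 largest rises were smaller. INHBA, the subunit of activin A, was at 36.7, 76.9 and 28.2 normalised counts in GFP and 1565 and 1777 in Sox2 (log2 change 5.24, SE 0.31; limma adjusted p = 1.45e-09). IGFBP5, which binds insulin-like growth factors, was at 131, 54.6 and 39.9 in GFP and 2598 and 2235 in Sox2 (log2 change 5.17, SE 0.34; limma adjusted p = 5.24e-09). MFAP5, a glycoprotein of elastic microfibrils, went from 12.9, 17.2 and 5.83 to 369 and 545 (log2 change 5.23, SE 0.54; limma adjusted p = 9.49e-07). These 12 genes were chosen for groups that do not overlap. ADAMTS6, a secreted metalloprotease (log2 change 4.88), SLC6A9, the glycine transporter GLYT1 (4.65), and the uncharacterised FLJ16779 (5.66) completed the 12 largest rises, with limma adjusted p from 8.93e-08 to 7.16e-06 for the first pair. For SLC6A9 the log2 change was 5.32 without GFP replicate 1, in which it was at 90.4 normalised counts.

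**Figure D1:**
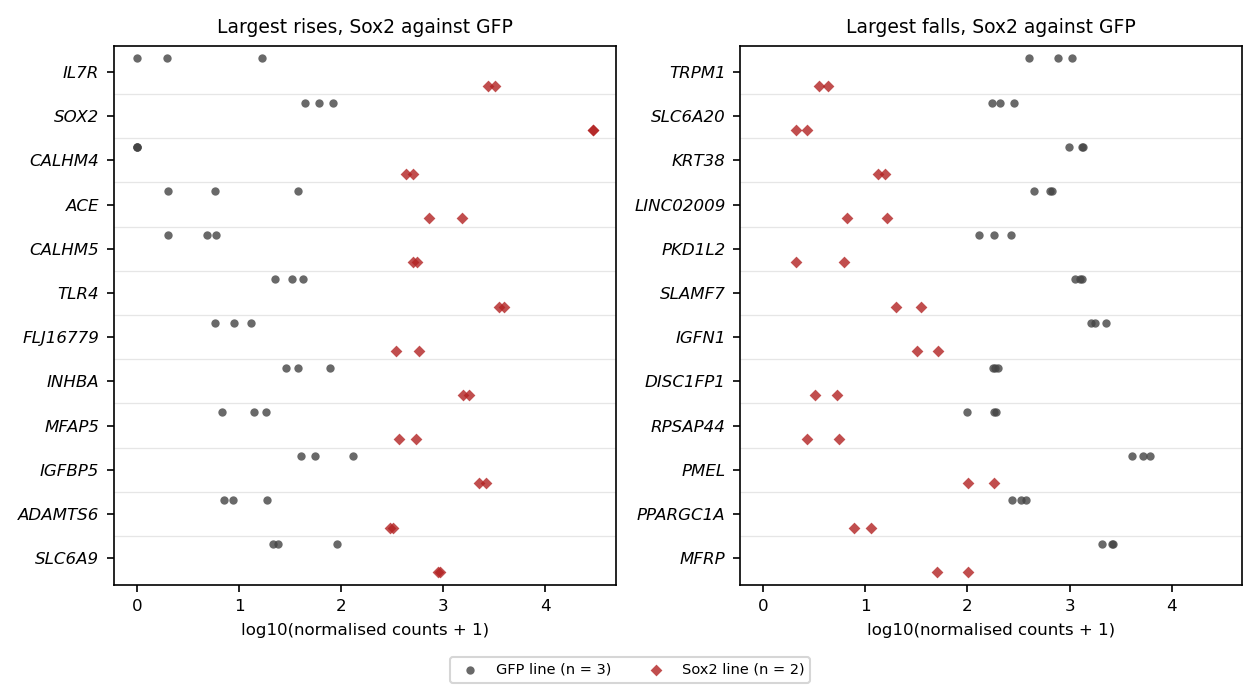
The 12 largest rises, SOX2 included (left), and the 12 largest falls (right) in the Sox2 line, as log10 of normalised counts + 1. Each circle is 1 of the 3 GFP libraries and each diamond 1 of the 2 Sox2 libraries. CALHM4 was at 0 in all 3 GFP libraries and at 435 and 506 in Sox2, and genes with overlapping groups were left out by the rule that chose those shown.

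The promoters of the 4 largest rises apart from SOX2 are shown because these genes were at 36.7 normalised counts or lower in every GFP library and at 435 or higher in both Sox2 libraries. Sequences are RefSeq's for GRCh38.p14, from 250 bases before to 50 bases after the most upstream start the table lists, written 5′ to 3′ on the gene's strand. Capitals mark the SOX core letters ACAAAG and ACAATG, searched on both strands (CTTTGT and CATTGT on the other strand), and the letters CATGTG of an E-box (CACATG on the other strand).
IL7R chr5:35856641-35856940 (+ strand): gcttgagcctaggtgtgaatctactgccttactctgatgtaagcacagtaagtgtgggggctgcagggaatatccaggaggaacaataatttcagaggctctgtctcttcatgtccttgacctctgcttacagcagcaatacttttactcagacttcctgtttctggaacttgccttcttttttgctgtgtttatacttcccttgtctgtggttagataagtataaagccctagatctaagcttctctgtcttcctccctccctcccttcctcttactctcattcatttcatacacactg
CALHM4 chr6:116528793-116529092 (+ strand): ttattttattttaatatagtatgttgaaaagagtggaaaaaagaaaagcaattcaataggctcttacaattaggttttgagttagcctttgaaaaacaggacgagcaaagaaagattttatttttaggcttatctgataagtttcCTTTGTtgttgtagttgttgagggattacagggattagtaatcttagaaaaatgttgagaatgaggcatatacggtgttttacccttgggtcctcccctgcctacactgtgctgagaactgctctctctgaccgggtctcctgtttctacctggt
ACE chr17:63476811-63477110 (+ strand): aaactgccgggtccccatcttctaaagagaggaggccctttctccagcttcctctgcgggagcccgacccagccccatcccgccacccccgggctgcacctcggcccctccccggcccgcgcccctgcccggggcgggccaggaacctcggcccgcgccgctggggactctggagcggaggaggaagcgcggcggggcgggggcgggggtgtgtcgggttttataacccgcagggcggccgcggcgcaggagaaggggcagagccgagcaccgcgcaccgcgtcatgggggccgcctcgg
CALHM5 chr6:116511389-116511688 (+ strand): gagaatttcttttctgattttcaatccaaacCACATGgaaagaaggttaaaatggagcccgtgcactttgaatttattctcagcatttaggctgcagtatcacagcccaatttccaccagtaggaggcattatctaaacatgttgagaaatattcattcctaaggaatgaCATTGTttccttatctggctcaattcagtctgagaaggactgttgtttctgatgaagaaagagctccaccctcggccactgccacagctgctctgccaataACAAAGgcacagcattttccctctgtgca

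The CALHM5 window held both SOX letters, ACAATG starting 80 bases before the start site and ACAAAG starting at base 22 after it, and the CALHM4 window held ACAAAG, starting 105 bases before it. CATGTG stood in the CALHM5 window, starting 219 bases before the start site. The IL7R and ACE windows held none of the 3 letter strings. A match of 6 letters is common: 16.7% of the windows of 12054 tested genes held ACAAAG or ACAATG, as did 18.4% of 768 windows of genes called at least 2-fold higher and 21% of 824 windows of genes called at least 2-fold lower. Over the windows of all 27305 genes in the RefSeq table the share was 24.7%. These shares describe letters only, and binding was not measured.

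Genes beside the largest rises gave mixed values. TRAPPC3L, which overlaps CALHM4 and CALHM5, was at 0 in every GFP library and at 8.98 and 16.3 normalised counts in Sox2, and was under the filter. RWDD1, next to CALHM4 on its other side, rose (log2 change 0.36, limma adjusted p = 0.00332), and RSPH4A beyond it overlapped between groups at 15.9, 12.1 and 22.4 in GFP and 19.1 and 15.4 in Sox2. Next to IL7R, SPEF2 was at 145, 145 and 163 in GFP and 433 and 454 in Sox2 (log2 change 1.55, SE 0.19; limma adjusted p = 7.73e-06), and CAPSL had at most 1.12 normalised counts in these libraries. Next to ACE, CYB561 rose by 0.48 (limma adjusted p = 0.0015), and KCNH6 was at 31.8, 0 and 0 in GFP and 2.24 and 1.71 in Sox2 and was not tested. Farther out, TANC2 near ACE (log2 change 1.24), LMBRD2 near IL7R (1.09) and ZUP1 near CALHM4 (0.91) were called higher. DCAF7 and TACO1 near ACE did not pass (0.02 each), and BRINP1 near TLR4 fell (-1.94). The labels do not state whether reads were counted by strand, so reads of overlapping genes such as TRAPPC3L and CALHM5 cannot be told apart.

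The largest falls included genes of the pigment cell. TRPM1, the melanocyte channel whose gene also hosts the microRNA miR-211, was at 402, 775 and 1051 normalised counts in GFP and 3.37 and 2.57 in Sox2, at least 250-fold lower (limma adjusted p = 2.2e-09). SLC6A20, a proline transporter of RPE, was at 209, 173 and 283 in GFP and 1.12 and 1.71 in Sox2, at least 74.6-fold lower (limma adjusted p = 3.78e-10). Both Sox2 libraries held at most 3 reads of each gene. PMEL, which forms the fibrils of melanosomes, was at 4094, 5281 and 6067 in GFP and 101 and 179.8 in Sox2 (log2 change -5.23, SE 0.20; limma adjusted p = 1.1e-11). MFRP, a membrane protein of RPE needed for eye growth, went from 2626, 2072 and 2643 to 49.4 and 100.2 (log2 change -5.09, SE 0.21; limma adjusted p = 2.84e-11). PPARGC1A, the coactivator PGC-1 alpha that drives mitochondrial biogenesis, went from 371, 274 and 332 to 6.73 and 10.3 (log2 change -5.12, SE 0.18; limma adjusted p = 6.79e-12). The largest falls, too, were chosen for groups that do not overlap.

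Other large falls had no shared label. KRT38, a hair keratin, fell from 995, 1318 and 1362 to 12.3 and 14.6 normalised counts (log2 change -6.40, SE 0.25; limma adjusted p = 1.85e-11). SLAMF7, a receptor of natural killer and plasma cells, fell from 1123, 1257 and 1336 to 19.1 and 34.2 (log2 change -5.54, SE 0.21; limma adjusted p = 1.11e-11), and IGFN1, an immunoglobulin and fibronectin domain protein, from 1607, 2271 and 1765 to 31.4 and 50.5. The rest of the 12 largest falls were the long non-coding RNA LINC02009 (log2 change -5.80), the polycystin relative PKD1L2 (-5.68), DISC1FP1 (-5.49) and RPSAP44 (-5.29). LINC02009 ranged from -6.45 to -5.14 and PKD1L2 from -6.45 to -4.91 when either Sox2 library was left out. RPSAP44 is a pseudogene of RPSA, so reads of the parent gene could have been counted there.

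Most pigment genes tested fell. Of 21 listed genes 16 were tested, and 10 fell and 3 rose, against 19.9% and 21.7% of all genes, with a median log2 change of -1.74 against -0.02 over all genes. MITF, the transcription factor that drives the pigment program, was at 3263, 3354 and 3602 normalised counts in GFP and 789.9 and 748 in Sox2 (log2 change -2.15, SE 0.07; limma adjusted p = 4.72e-12). TYR, the rate-limiting enzyme of melanin synthesis, was at 349.6, 513 and 578 in GFP and 8.98 and 19.7 in Sox2 (log2 change -5.03, SE 0.36; limma adjusted p = 1.73e-08), and the related enzyme TYRP1 at 2168, 2491 and 2813 in GFP and 119 and 149 in Sox2 (log2 change -4.21, SE 0.19; limma adjusted p = 7.67e-11). The 5 libraries separated fully for MITF, TYR and TYRP1, with the Sox2 libraries low. SLC45A2, a melanosome transporter (log2 change -3.64), GPR143, the ocular albinism receptor (-2.88), GPNMB (-2.67), MLPH (-1.33) and RAB32 (-0.87) also fell. Against this direction, ATP7A, the copper pump that supplies tyrosinase, rose from 301, 317 and 315 to 673 and 591 (log2 change 1.02, SE 0.09; limma adjusted p = 3.04e-07), as did RAB38 (0.70) and the low MLANA (1.28). The count of 3 rises was 1 without GFP replicate 2 and without either Sox2 library, and 10 falls were counted in each of those fits. RAB38 did not pass in any of those 3 fits, nor without GFP replicate 3 (limma adjusted p = 0.0505 to 0.107). In bulk RNA, fewer cells with a transcript and less of it per cell cannot be told apart.

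**Figure D2:**
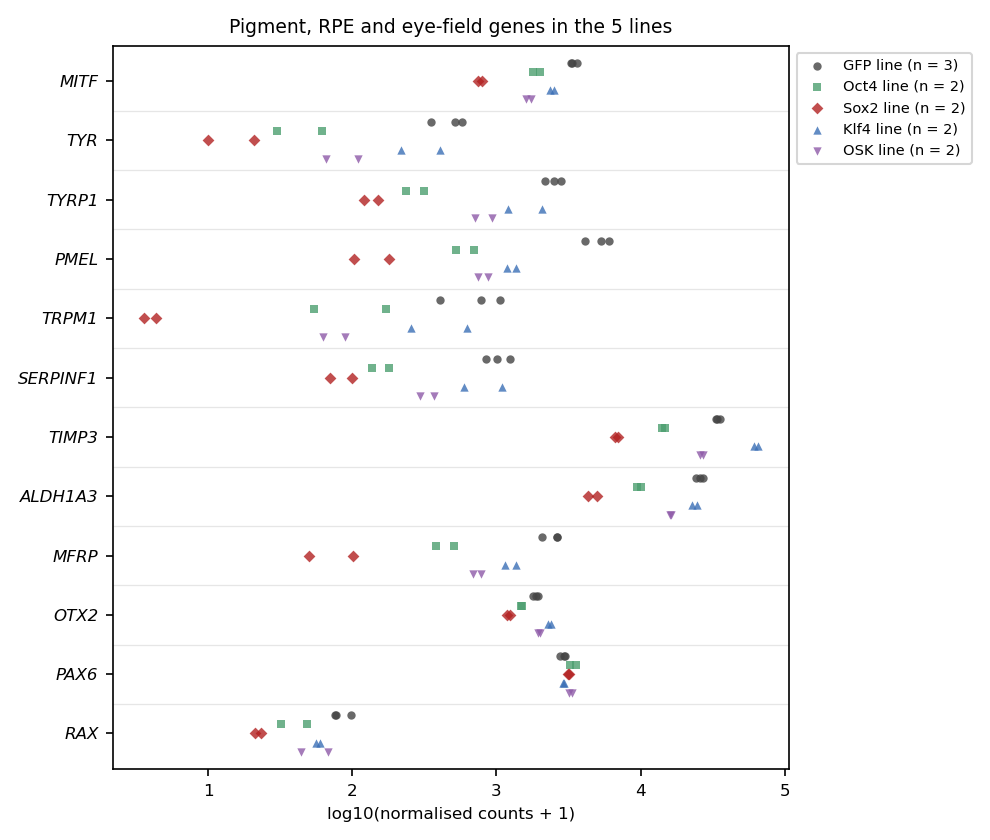
Pigment, RPE and eye-field genes in all 11 libraries, as log10 of normalised counts + 1, with 1 symbol per library and 1 colour and shape per line. The Sox2 libraries (diamonds) are the lowest for MITF (789.9 and 748 normalised counts), TYR, TYRP1, PMEL and TRPM1, and lie with the other lines for PAX6.

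The promoters of pigment genes are shown because MITF is known to bind CATGTG letters there. The 4 windows below belong to the pigment genes with the largest falls that the RefSeq table holds. PMEL and SLC45A2 were not matched. Source, strand and capitals are as for the windows of the rising genes.
TRPM1 chr15:31161111-31161410 (- strand): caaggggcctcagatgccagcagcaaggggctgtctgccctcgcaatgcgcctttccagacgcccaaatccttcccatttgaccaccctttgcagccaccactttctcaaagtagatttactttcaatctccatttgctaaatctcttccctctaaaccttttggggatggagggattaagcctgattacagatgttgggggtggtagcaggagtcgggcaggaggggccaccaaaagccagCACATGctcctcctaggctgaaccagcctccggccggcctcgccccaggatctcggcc
TYR chr11:89177625-89177924 (+ strand): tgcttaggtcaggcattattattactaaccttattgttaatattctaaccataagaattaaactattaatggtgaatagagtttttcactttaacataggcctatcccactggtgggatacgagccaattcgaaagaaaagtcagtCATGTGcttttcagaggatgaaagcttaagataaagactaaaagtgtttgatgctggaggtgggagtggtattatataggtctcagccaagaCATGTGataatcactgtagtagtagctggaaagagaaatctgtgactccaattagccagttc
TYRP1 chr9:12693135-12693434 (+ strand): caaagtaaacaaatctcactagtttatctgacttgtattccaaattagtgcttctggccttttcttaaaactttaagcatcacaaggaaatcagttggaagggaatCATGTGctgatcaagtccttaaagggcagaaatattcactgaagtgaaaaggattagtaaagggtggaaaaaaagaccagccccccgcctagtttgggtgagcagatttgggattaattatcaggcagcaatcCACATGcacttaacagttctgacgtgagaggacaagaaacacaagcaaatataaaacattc
GPR143 chrX:9765798-9766097 (- strand): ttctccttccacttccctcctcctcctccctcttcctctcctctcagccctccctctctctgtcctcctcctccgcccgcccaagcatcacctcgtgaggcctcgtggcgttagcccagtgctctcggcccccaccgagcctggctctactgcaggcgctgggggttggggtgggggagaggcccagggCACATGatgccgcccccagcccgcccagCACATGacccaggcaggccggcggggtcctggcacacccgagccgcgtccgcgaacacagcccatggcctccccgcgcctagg

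CATGTG, on either strand, stood once in the TRPM1 window, starting 8 bases before the start site, and at 2 places in each of the TYR, TYRP1 and GPR143 windows. The TYR copies started 104 and 12 bases before the start site, those of TYRP1 144 and 11 bases, and those of GPR143 61 and 33 bases. Among 8 windows matched for the 10 fallen pigment genes, 5 held CATGTG (also GPNMB), against 7.13% of the windows of genes tested, 9.59% of those called at least 2-fold lower and 4.82% of those called at least 2-fold higher. The MITF window was the 1 of the 8 with a SOX core. CATGTG was not limited to falling genes. It stood in 3 of the 9 windows matched for the largest rises apart from SOX2 (33.3%). Of the 7 windows matched for the largest falls, 2 held it (28.6%), TRPM1 among them. CATGTG is also bound by other E-box factors, and the match is a description of these windows.

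Of 33 listed RPE function genes 26 were tested, and 7 rose and 8 fell (26.9% and 30.8%, against 21.7% and 19.9% of all genes tested), with a median of -0.45. TIMP3, a metalloprotease inhibitor of the RPE basement membrane, was at 34034, 33555 and 35718 normalised counts in GFP and 7013 and 6634 in Sox2 (log2 change -2.34, SE 0.07; limma adjusted p = 1.6e-12). ALDH1A3, which makes retinoic acid, fell from 24240.1, 25865 and 27077 to 4319.6 and 4998 (log2 change -2.47, SE 0.08; limma adjusted p = 1.79e-12), and SERPINF1, the antiangiogenic factor PEDF, from 850.0, 1008 and 1243 to 68.4 and 98.5 (log2 change -3.62, SE 0.23; limma adjusted p = 2.94e-09). VEGFA (-1.85) and the eye-field factor LHX2 (-1.72) fell too. On the rising side were ABCA1, a cholesterol exporter, at 584, 520.0 and 581 in GFP and 1415 and 1469 in Sox2 (log2 change 1.36, SE 0.11; limma adjusted p = 4.36e-08), and GAS6, a bridging ligand for phagocytosis (1.30). BEST1, the bestrophin channel, overlapped between groups at 87.4, 103 and 136 in GFP and 78.5 and 104 in Sox2 (limma adjusted p = 0.416).

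Of 21 eye-field and neural progenitor genes tested, 3 rose and 8 fell (14.3% and 38.1%, against 21.7% and 19.9% of all genes tested), with a median of -0.41. PAX6 was at 2939, 2758 and 2997 normalised counts in GFP and 3156 and 3160.4 in Sox2 (log2 change 0.12, SE 0.06; limma adjusted p = 0.141). OTX2 was at 1887, 1804 and 1952 in GFP and 1241 and 1175 in Sox2 (log2 change -0.64, SE 0.06; limma adjusted p = 8.28e-07), and RAX, an early eye-field factor, at 75.5, 74.9 and 96.2 in GFP and 20.2 and 22.3 in Sox2 (log2 change -1.90, SE 0.27; limma adjusted p = 3.13e-05). The Sox2 libraries were the lower ones for OTX2 and RAX. MEIS2 (-1.42) and NR2F2 (-1.13) fell and MEIS1 (0.88) rose. FOXD1 was called higher (0.35, limma adjusted p = 0.0385), and its call was lost without GFP replicate 1 or either Sox2 library (limma adjusted p = 0.0625 to 0.251).

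Of 12 neuron markers tested, 1 rose and 5 fell (8.33% and 41.7%, against 21.7% and 19.9% of all genes tested), with a median of -1.44 (-0.94 without GFP replicate 1), and without Sox2 replicate 1 or 2 the falls numbered 3 and 2. MAP2, a microtubule protein of dendrites, was at 2468, 2007 and 2153 normalised counts in GFP and 5049 and 4964 in Sox2 (log2 change 1.19, SE 0.09; limma adjusted p = 4.21e-08), whereas TUBB3, neuronal beta tubulin, was at 334, 331 and 307 in GFP and 61.7 and 59.1 in Sox2 (log2 change -2.40, SE 0.17; limma adjusted p = 1.39e-08). The summed neuron list ran from 4069 to 4637 in GFP and from 5713 to 5795 in Sox2. The early neuronal marker DCX had 0 in both Sox2 libraries, as did STMN2. The eye-cup factor PAX2 had at most 1.12 there.

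Among photoreceptor genes CRX and SAG were at 0 in both Sox2 libraries and at 43.7 and 30.8 in GFP replicate 1. Of 4 photoreceptor genes tested ROM1 alone was called (0.98), so 25% rose and 0% fell, against 21.7% and 19.9% of all genes tested. The summed list ran from 300 to 437 in GFP and from 297 to 401 in Sox2. Of 5 endothelial genes tested EGFL7 rose and KDR fell (20% each way, near the shares of all genes). CDH5 had at most 0.86 in Sox2, and the sum was 1133 to 1559 in GFP and 782 to 992 in Sox2. The number of endothelial rises was 3 without GFP replicate 1 and 0 without GFP replicate 2 or Sox2 replicate 2. Of 4 leukocyte genes tested CSF1R alone was called (-1.40), so 0% rose and 25% fell. PTPRC, the leukocyte marker CD45, had at most 2.24, and the sum was 211 to 297 in GFP and 89.8 to 99.3 in Sox2. Without GFP replicate 3 the leukocyte falls numbered 2. Of 2 lens genes tested BFSP1 alone was called (0.72), so 50% rose and 0% fell. That call was lost without either GFP replicate 2 or 3 and without either Sox2 library. The other lens gene tested, CRYAB, was called lower without GFP replicate 1. The summed lens list ran from 14709 to 20271 in GFP and from 15138 to 17973 in Sox2. Nearly all of that sum was CRYAB, and CRYAA was at 0 in all 5 libraries. The part of other cells in the results was not tested.

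Of 13 pluripotency genes tested, 1 rose and 7 fell (7.69% and 53.8%, against 21.7% and 19.9% of all genes tested), with a median of -0.85 (-0.65 without GFP replicate 1). NANOG, a partner of OCT4 and SOX2 in pluripotent cells, was at 16.9, 14.2 and 14.6 normalised counts in GFP and 5.61 and 0.86 in Sox2 (log2 change -2.20, SE 0.60; limma adjusted p = 0.00785). LIN28A, which binds let-7 precursors, went from 311, 279 and 224 to 154 and 104 (log2 change -1.08, SE 0.19; limma adjusted p = 0.000255), and DNMT3B, a DNA methyltransferase, from 438, 427 and 310.1 to 184 and 176 (log2 change -1.10, SE 0.15; limma adjusted p = 1.49e-05). LEFTY2, an inhibitor of Nodal signalling, was the exception at 17.9, 6.07 and 6.80 in GFP and 118 and 121 in Sox2 (log2 change 3.57, SE 0.65; limma adjusted p = 0.000335). The groups were separate for these 4 genes. NANOG and POU5F1 have near-identical pseudogenes with which reads could have been shared. Without Sox2 replicate 2, 3 members were called lower in place of 7, and NANOG was not among them (limma adjusted p = 0.148).

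Of 10 SOX family genes tested, SOX2 not among them, 2 rose and 4 fell (20% and 40%, against 21.7% and 19.9% of all genes tested). SOX8, a group E factor of neural crest, was at 3335, 5271 and 5592 normalised counts in GFP and 199 and 307 in Sox2 (log2 change -4.22, SE 0.18; limma adjusted p = 5.27e-11). SOX9, its close relative, was at 1511, 1651 and 1752 in GFP and 707 and 694 in Sox2 (log2 change -1.22, SE 0.08; limma adjusted p = 5.24e-09), and SOX4 at 8088, 10255 and 10029 in GFP and 3685 and 3576 in Sox2 (log2 change -1.37, SE 0.10; limma adjusted p = 2.36e-08). The group D factors SOX5 (55.6, 50.6 and 54.4 in GFP, 172 and 168 in Sox2) and SOX6 (82.4, 41.5 and 48.6 in GFP and 167 and 213 in Sox2) rose, with log2 changes of 1.65 and 1.76 (adjusted p in limma 2.21e-07 and 0.00027). SOX1 and SOX3, the group B1 relatives of SOX2, had at most 3.42 in Sox2 libraries and were not tested.

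FGF signals through receptor tyrosine kinases to the kinase ERK, which switches on its own brakes, such as the DUSP phosphatases and SPRY proteins. Of 30 ERK feedback and immediate early genes tested, 11 rose and 11 fell (36.7% each way, against 21.7% and 19.9% of all genes tested), with a median of -0.13. DUSP6, the phosphatase that removes ERK's activating phosphates, was at 87.4, 91.0 and 77.8 normalised counts in GFP and 1089 and 1236 in Sox2 (log2 change 3.75, SE 0.13; limma adjusted p = 4.72e-12). EGR2 (21.9, 31.4 and 22.4 in GFP, 287 and 241 in Sox2) and the cyclin gene CCND1 (4018, 5737 and 5409 in GFP and 21192 and 20243 in Sox2) rose by 3.35 and 2.05 (limma adjusted p = 5.52e-06 and 9.2e-10). The phosphatases DUSP1 and DUSP2 went the other way, DUSP1 from 6747, 7353 and 6979 to 1915 and 1831 (log2 change -1.91, SE 0.07; limma adjusted p = 5.42e-12) and DUSP2 from 98.3, 254 and 202 to 3.37 and 6.85 (log2 change -4.88, SE 0.38; limma adjusted p = 4.5e-08). The immediate early genes FOS (-1.82), EGR1 (-1.49) and MYC (-1.25) fell, while ETV4 (1.59) and ETV5 (1.27), which respond to FGF, rose.

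Of 17 FGF ligands and receptors tested, 5 rose and 5 fell (29.4% each way, against 21.7% and 19.9% of all genes tested). The rises numbered 3 without GFP replicate 2, and fewer rises were also called when either Sox2 library was left out. The share of all genes called higher in those fits is not given here. FGF1 was at 10.9, 2.02 and 0.97 normalised counts in GFP and 62.8 and 64.2 in Sox2 (log2 change 3.96, SE 0.58; limma adjusted p = 3.86e-05; without GFP replicate 1 the log2 change was 4.73), and FGF5 at 325, 411 and 453 in GFP and 903 and 879 in Sox2 (log2 change 1.18, SE 0.12; limma adjusted p = 9.4e-07). FGF18 (-2.70), FGFR3 (-1.03) and FGFRL1 (-1.09) fell, and FGFR4, which fell by 2.05 on the log2 scale with all libraries, fell by 1.34 without GFP replicate 1. The fall of FGFR4 was also smaller without Sox2 replicate 2 (-1.51), which left 1 Sox2 library. Of 12 EGF family genes tested, 4 rose and 2 fell (33.3% and 16.7%). The ligands TGFA (1.25), HBEGF (0.97) and NRG3 (1.41) rose, and the receptors EGFR (-0.59) and ERBB4 fell. ERBB4 was at 2705, 3224 and 3536 in GFP and 746 and 861 in Sox2 (log2 change -1.97, SE 0.11; limma adjusted p = 1.12e-09).

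TGF-beta and BMP signal through related receptors. Both branches use SMAD proteins, and ID genes are direct BMP targets. Of 49 genes tested, 19 rose and 17 fell (38.8% and 34.7%, against 21.7% and 19.9% of all genes tested), with a median of 0.07. LTBP1, which anchors latent TGF-beta, was at 338, 356 and 373 normalised counts in GFP and 3021 and 2905 in Sox2 (log2 change 3.06, SE 0.09; limma adjusted p = 5.64e-13), and the BMP-type ligand GDF6 at 16.9, 22.3 and 9.72 in GFP and 147 and 178 in Sox2 (log2 change 3.31, SE 0.38; limma adjusted p = 2.92e-06). Both Sox2 libraries were above all GFP libraries for each. ID1 was at 1846, 2163 and 2120.1 in GFP and 197 and 241 in Sox2 (log2 change -3.22, SE 0.09; limma adjusted p = 4.4e-13), ID2 at 4871, 4509.9 and 4306 in GFP and 605 and 593 in Sox2 (log2 change -2.93, SE 0.07; limma adjusted p = 2.16e-13) and SMAD9, a BMP effector, at 768, 963 and 984 in GFP and 138 and 193 in Sox2 (log2 change -2.46, SE 0.15; limma adjusted p = 2.2e-09). The co-receptor TGFBR3 fell from 2533, 1709.7 and 1969 to 251 and 170.4 (log2 change -3.30, SE 0.16; limma adjusted p = 1.4e-10). Further members, singled out after their values were seen, were TGFB1 (1.63), TGFBR2 (1.47), TGFBI (1.82) and the antagonists FST (2.68) and CHRD (1.82; 2.72 without GFP replicate 1), which rose, and ID3 (-1.77), ID4 (-1.65), SMAD6 (-1.84), BAMBI (-1.72), BMP2 (-2.44) and BMP4 (-1.39), which fell (all called in limma).

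Of 40 Wnt genes tested, 12 rose and 13 fell (30% and 32.5%, against 21.7% and 19.9% of all genes tested), with a median of -0.34. The secreted antagonists DKK1 and SFRP1 fell: DKK1 was at 2578, 3045 and 2787 normalised counts in GFP and 318 and 354 in Sox2 (log2 change -3.06, SE 0.09; limma adjusted p = 7.52e-13), and SFRP1 at 15041, 16557 and 17479 in GFP and 3037 and 3451 in Sox2 (log2 change -2.33, SE 0.08; limma adjusted p = 3.68e-12). WNT2B, a ligand made by RPE, fell from 2624, 3175 and 3668 to 595 and 717 (log2 change -2.26, SE 0.13; limma adjusted p = 1.44e-09), as did the receptor FZD4 (-1.99). WNT5B (2.89; 3.40 without GFP replicate 1), the R-spondin receptor LGR4 (1.47), the ligand RSPO3 (4.06; 4.66 without GFP replicate 1) and ZNRF3 (1.33), a brake on Wnt receptors, rose. Among 20 Notch genes tested, 8 rose and 3 fell (40% and 15%). JAG1, a Notch ligand, was at 379, 429.9 and 426 in GFP and 4057 and 4351 in Sox2 (log2 change 3.35, SE 0.08; limma adjusted p = 2.16e-13), and the target gene HEY1 at 21.9, 25.3 and 29.2 in GFP and 204 and 165 in Sox2 (log2 change 2.81, SE 0.26; limma adjusted p = 2.48e-07). The receptors NOTCH1 (-0.88) and NOTCH2 (-0.49) fell, and HES1 did not pass (-0.37) unless GFP replicate 1 was left out (limma adjusted p = 0.00456).

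**Figure D3:**
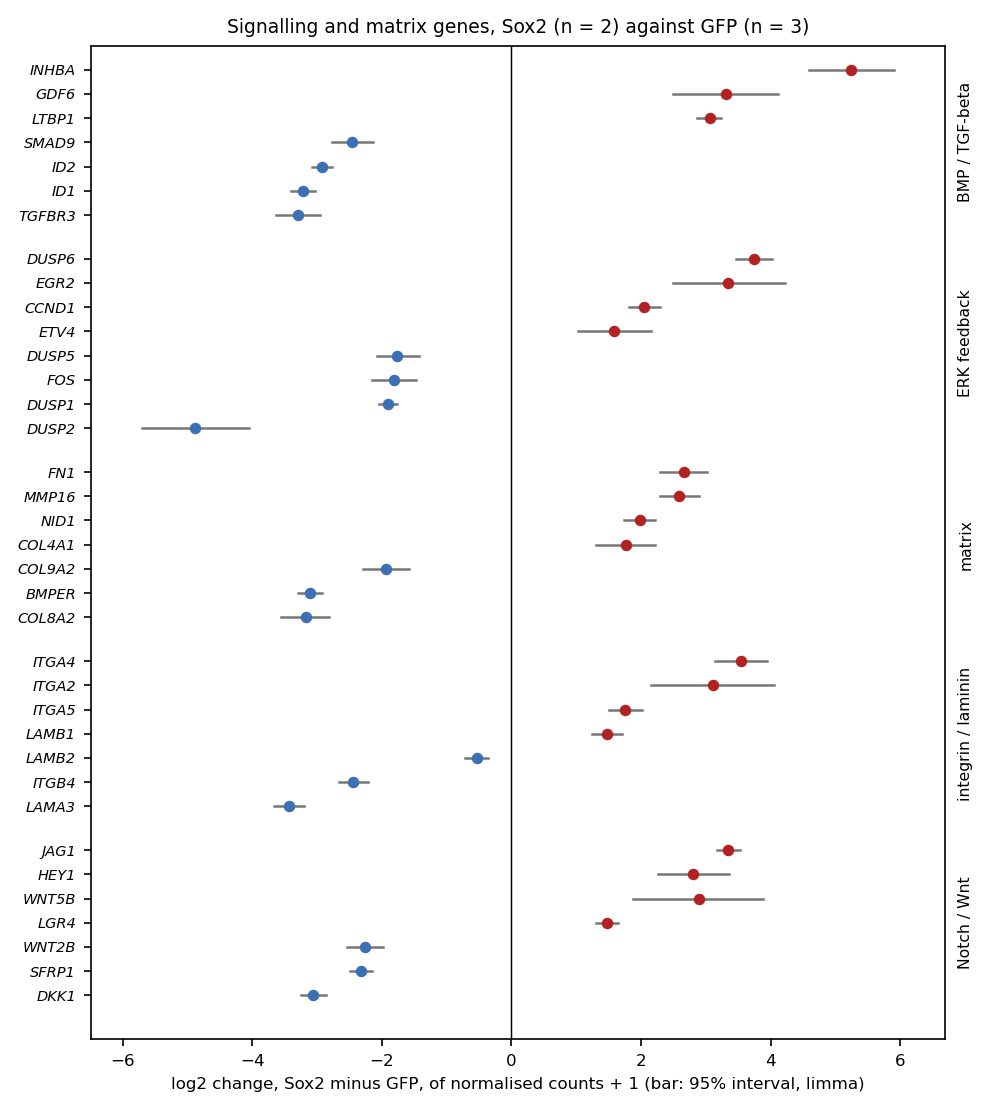
Log2 change in the Sox2 line (n = 2) against GFP (n = 3) for named signalling and matrix genes, grouped by list, with 95% intervals from limma. Points right of 0 rose (INHBA, 5.24) and points left of 0 fell (DUSP2, -4.88). Genes were chosen as the largest called changes each way of each list, so their number on either side is set by that choice.

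Of 33 collagens tested 12 rose and 6 fell (36.4% and 18.2%, against 21.7% and 19.9% of all genes tested), and of 48 other matrix genes 13 rose and 16 fell (27.1% and 33.3%). The share of collagens that fell was thus near that of all genes. Their median log2 change was -0.25 (0.02 without GFP replicate 1), against -0.02 over all genes. FN1, fibronectin, was at 5613, 7716 and 6460.4 normalised counts in GFP and 47756 and 35718 in Sox2 (log2 change 2.66, SE 0.17; limma adjusted p = 3.53e-09). The basement membrane collagen COL4A1 was at 5893, 12807 and 10112 in GFP and 31295 and 30909 in Sox2 (log2 change 1.77, SE 0.21; limma adjusted p = 5.17e-06), and its partner COL4A2 rose by 1.37 (limma adjusted p = 3.77e-05). GFP replicate 1 was the lowest of the GFP libraries for each of them. COL5A2 (1.80), COL5A1 (1.41), the basement membrane linker NID1 (1.98) and the membrane protease MMP16 (2.59) also rose. COL8A2, a collagen of corneal and RPE basement membranes, fell from 289, 298 and 345 to 28.1 and 39.4 (log2 change -3.18, SE 0.18; limma adjusted p = 7.59e-10), and COL9A2 (-1.94), COL4A4 (-0.81), FBLN2 (-2.06) and the BMP modulator BMPER (-3.11) fell. COL16A1 was called lower (-0.82) and lost that call without GFP replicate 1 or either Sox2 library (limma adjusted p = 0.0973 to 0.134).

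Of 27 integrin and laminin genes tested, 12 rose and 9 fell (44.4% and 33.3%, against 21.7% and 19.9% of all genes tested), with a median of 0.06 that was 0.41 without GFP replicate 1. ITGA4, the alpha 4 integrin that binds fibronectin, was at 128, 173 and 170.1 normalised counts in GFP and 2049 and 1641 in Sox2 (log2 change 3.55, SE 0.19; limma adjusted p = 4.44e-10), and the fibronectin receptor chain ITGA5 at 884, 1284 and 1217 in GFP and 3787 and 3744 in Sox2 (log2 change 1.76, SE 0.12; limma adjusted p = 6.69e-09). ITGA2, a collagen receptor chain, rose by 3.11, and LAMB1 by 1.47. LAMA3, the alpha chain of laminin-332, was at 9983, 8608 and 10794 in GFP and 816 and 984 in Sox2 (log2 change -3.44, SE 0.11; limma adjusted p = 1.46e-12), and ITGB4, the hemidesmosome integrin that binds this laminin, at 11999.9, 13595 and 15016 in GFP and 2178 and 2814 in Sox2 (log2 change -2.44, SE 0.10; limma adjusted p = 3.95e-11). Both were lower in each Sox2 library than in any GFP library. Without Sox2 replicate 1 the falls of this list numbered 3.

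Of 29 contractile genes tested, 15 rose and 5 fell (51.7% and 17.2%, against 21.7% and 19.9% of all genes tested), with a median of 0.58. ACTA2, smooth muscle actin, was at 266, 752 and 567 normalised counts in GFP and 1753 and 2106 in Sox2 (log2 change 1.99, SE 0.28; limma adjusted p = 2.52e-05), and TAGLN, a smooth muscle actin binder, at 1999, 5105 and 3551 in GFP and 12300.1 and 12135 in Sox2 (log2 change 1.88, SE 0.24; limma adjusted p = 7.88e-06). VCL, vinculin of focal adhesions, rose from 7309, 9971 and 9952 to 29023 and 32898 (log2 change 1.78, SE 0.11; limma adjusted p = 2.81e-09), and LMOD1, an actin nucleator, by 2.63. For these 4 genes GFP replicate 1 was the lowest library, and both Sox2 libraries were above all GFP libraries. The sarcomere gene MYOZ2 fell from 149, 258 and 215 to 15.7 and 19.7 (log2 change -3.45, SE 0.33; limma adjusted p = 4.44e-07), and ACTC1, cardiac actin, fell by 1.74 on the log2 scale. The falls numbered 3 without GFP replicate 2 and without either Sox2 library.

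Of 35 cadherin and tight junction genes tested 10 rose and 11 fell (28.6% and 31.4%, against 21.7% and 19.9% of all genes tested). Fewer falls were called when either Sox2 library was left out. CDH2, N-cadherin, was at 5089, 6476 and 5938 normalised counts in GFP and 11006 and 10563 in Sox2 (log2 change 0.89, SE 0.10; limma adjusted p = 1.66e-06). CDH1, E-cadherin, was at 199.6, 259 and 245 in GFP and 328 and 315 in Sox2 (log2 change 0.46, SE 0.17; limma adjusted p = 0.036), a call that was lost without GFP replicate 1, GFP replicate 3 or either Sox2 library (limma adjusted p = 0.0529 to 0.166). CDH10 (2.30), PCDH18 (2.87) and CLDN1 (1.52) rose, and PCDH7 (-1.81) and the junction protein F11R (-1.06) fell. Of 9 factors of epithelial to mesenchymal transition tested, ZEB1 (0.82) and TWIST1 (0.88) rose, PRRX1 (-0.76) and GRHL1 (-0.72) fell, and neither fall passed without Sox2 replicate 2. GRHL1 also did not pass without GFP replicate 1 (limma adjusted p = 0.102), and SNAI2 was at 0 in both Sox2 libraries. Of 17 keratins tested 1 rose and 8 fell (5.88% and 47.1%), with a median of -1.23. KRT80 went from 7484, 12095 and 11702 to 3971 and 3987 (log2 change -1.36, SE 0.15; limma adjusted p = 1.69e-06) and KRT33B from 392, 476 and 544 to 21.3 and 28.3 (log2 change -4.19, SE 0.17; limma adjusted p = 2.38e-11), whereas KRT8 (-0.16) and KRT18 (-0.08), the keratins of simple epithelia, did not pass. KRT8 passed without GFP replicate 1 (limma adjusted p = 0.022). KRT81 (2.05) and KRT86 (-2.54) are close copies, and how reads were split between them is not given in the sources used here.

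Of 57 cytokine and cytokine receptor genes tested, 17 (29.8%) rose and 15 (26.3%) fell, against 21.7% and 19.9% of all genes. Among the partners of IL7R named here, its ligand rose, JAK3 overlapped between groups, and CRLF2 and TSLP were low in Sox2. Its other partners are not reported here. IL7, that ligand, was at 16.9, 11.1 and 7.78 normalised counts in GFP and 37.0 and 36.0 in Sox2 (limma adjusted p = 0.00715, and 0.0561 without Sox2 replicate 1), 3.06 times the GFP mean, the kinase JAK3 overlapped at 78.5, 20.2 and 23.3 in GFP and 17.9 and 26.5 in Sox2, and CRLF2, which pairs with IL7R for TSLP, was at 0 in all 5 libraries, with TSLP at most 1.12 in Sox2. IL11 was at 8.94, 0 and 7.78 in GFP and 80.8 and 111 in Sox2 (log2 change 4.43, SE 0.76; limma adjusted p = 0.000188; the log2 change was 5.02 without GFP replicate 1 and 3.36 without GFP replicate 2), and IL1R1 rose by 2.49. IL18 was at 6332, 8115 and 7540.4 in GFP and 904 and 1316 in Sox2 (log2 change -2.74, SE 0.13; limma adjusted p = 1.72e-10), IL6R at 106, 72.8 and 89.4 in GFP and 1.12 and 4.28 in Sox2 (log2 change -4.74, SE 0.34; limma adjusted p = 1.77e-08; -5.40 to -4.08 without either Sox2 library) and SOCS3, the brake on IL6 family signalling, at 374, 397 and 418 in GFP and 52.7 and 73.6 in Sox2 (log2 change -2.65, SE 0.14; limma adjusted p = 4.71e-10). These genes were lower in both Sox2 libraries. Of the angiotensin and kinin genes 7 were tested. The bradykinin receptors BDKRB1 (-3.60) and BDKRB2 (-3.52) and the angiotensin precursor AGT (-1.52) fell, and AGT did not pass without Sox2 replicate 2 (limma adjusted p = 0.113), while ACE and LNPEP (0.77) rose.

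Of 40 interferon-stimulated genes tested, 16 rose and 2 fell (40% and 5%, against 21.7% and 19.9% of all genes tested), with a median of 0.63. IFI6 was at 128, 139.6 and 102 normalised counts in GFP and 1177 and 1524 in Sox2 (log2 change 3.44, SE 0.19; limma adjusted p = 9.05e-10), TRIM22 at 1287, 1376 and 1481 in GFP and 6618 and 7950.2 in Sox2 (log2 change 2.39, SE 0.10; limma adjusted p = 2.56e-11) and ISG15, a ubiquitin-like modifier, at 27.8, 40.5 and 44.7 in GFP and 166 and 335 in Sox2 (log2 change 2.64, SE 0.30; limma adjusted p = 2.64e-06). The 2 Sox2 libraries differed here, with replicate 2 higher for IFI6, TRIM22, ISG15 and OAS3 (202 and 352). Without Sox2 replicate 2 fewer members of this list rose and more fell, whereas without Sox2 replicate 1 the count of rises stayed the same. The share of all genes called higher in those fits is not given here. Of 20 HLA class I genes and their peptide loaders, 8 rose, among them HLA-B (0.92), TAP1 (1.00) and TAP2 (1.36), and 2 fell (40% and 10%, with 1 fall without Sox2 replicate 1). Reads of HLA genes can be split between near-identical copies. Of 16 complement genes 4 rose and 6 fell (25% and 37.5%), a share of rises near that of all genes. C1S was at 2138, 2038 and 2418 in GFP and 238 and 390.4 in Sox2 (log2 change -2.84, SE 0.18; limma adjusted p = 4.59e-09), C1R fell by 2.15 and VTN, vitronectin, by 3.18 on the log2 scale, whereas the cell surface regulators CD46 (0.70), CD55 (0.22) and CD59 (0.24) rose. VTN ranged from -3.83 to -2.52 when either Sox2 library was left out. CD55 did not pass without GFP replicate 3 or Sox2 replicate 1, nor CD59 without Sox2 replicate 2 (limma adjusted p = 0.0542, 0.189 and 0.106).

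Axon guidance genes, which also guide vessels and epithelia, rose in 13 and fell in 21 of 62 tested (21% and 33.9%, against 21.7% and 19.9% of all genes tested). SEMA3B was at 9991, 11317 and 11629 normalised counts in GFP and 1598 and 1515 in Sox2 (log2 change -2.82, SE 0.08; limma adjusted p = 4.22e-13), SEMA4A at 156, 137 and 122 in GFP and 4.49 and 8.56 in Sox2 (log2 change -4.25, SE 0.29; limma adjusted p = 8.89e-09) and the netrin receptor UNC5B at 2178, 2983 and 3189 in GFP and 341 and 599 in Sox2 (log2 change -2.60, SE 0.19; limma adjusted p = 2.25e-08). NRP2, a semaphorin and VEGF co-receptor, was at 55.6, 90.0 and 78.7 in GFP and 954 and 743 in Sox2 (log2 change 3.50, SE 0.22; limma adjusted p = 3.53e-09), while its relative NRP1 fell by 1.15 on the log2 scale. EPHA5 (3.17), NTN4 (2.24) and SLIT2 (1.73) rose. The groups were separate for each of these genes.

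Cell cycle genes rose together. Of 40 genes of G2 and mitosis tested, 34 rose (85%, against 21.7% of all genes tested) and 0 fell by limma, at a median of 1.40; 0 were also called lower by edgeR and by DESeq2, and 0 were lower at an unadjusted p of 0.05 in limma. MKI67, the proliferation marker, was at 189.7, 251 and 213 normalised counts in GFP and 878 and 945 in Sox2 (log2 change 2.07, SE 0.12; limma adjusted p = 1.75e-09), the kinetochore gene NDC80 at 20.9, 29.3 and 22.4 in GFP and 141 and 128 in Sox2 (log2 change 2.45, SE 0.24; limma adjusted p = 4.81e-07) and the mitotic motor CENPE at 69.5, 65.8 and 57.4 in GFP and 292 and 245 in Sox2 (log2 change 2.05, SE 0.14; limma adjusted p = 1.24e-08). Both Sox2 libraries were above every GFP library. Of 47 genes of G1/S and replication, 28 rose and 3 fell (59.6% and 6.38%), at a median of 0.73. E2F1, which turns on S-phase genes, was at 70.5, 76.9 and 64.2 in GFP and 388 and 342 in Sox2 (log2 change 2.36, SE 0.14; limma adjusted p = 2.28e-09), and RRM2, which makes deoxynucleotides, at 130.1, 84.0 and 57.4 in GFP and 370.2 and 374 in Sox2 (log2 change 2.11, SE 0.23; limma adjusted p = 1.45e-06). CCND2 (-1.88) and CDK4 (-1.01) fell. Of 31 CDK inhibitors and p53 targets 8 rose and 9 fell (25.8% and 29%, against 21.7% and 19.9% of all genes tested). CDKN2C (1.87) rose, CDKN1C (-1.09) and GADD45A (-1.14) fell, and CDKN1A did not pass (0.01). Without GFP replicate 1, CDKN1A was called lower (log2 change -0.17, limma adjusted p = 0.0265), and without Sox2 replicate 1 the rises of this list numbered 5. The summed G2 and mitosis list was 5231 to 5622 in GFP and 11614 to 11928 in Sox2.

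The series title names GSTA4, which detoxifies lipid aldehydes; it was at 88.4, 127 and 125 normalised counts in GFP and 169 and 194 in Sox2 (log2 change 0.69, SE 0.17; limma adjusted p = 0.00431). Without Sox2 replicate 2 GSTA4 did not pass (log2 change 0.59, limma adjusted p = 0.0595). Of 58 NRF2 targets and glutathione genes tested, 17 rose and 18 fell (29.3% and 31%, against 21.7% and 19.9% of all genes tested), with a median of -0.06. The cystine transporter pair moved apart, SLC7A11 from 27.8, 28.3 and 21.4 to 205 and 206 (log2 change 2.95, SE 0.22; limma adjusted p = 1.99e-08) and its heavy chain SLC3A2 from 12339, 13845 and 14026 to 2628 and 3031 (log2 change -2.24, SE 0.08; limma adjusted p = 4.75e-12). TXNRD1, thioredoxin reductase, fell from 17018, 17344 and 17728 to 5025 and 5514 (log2 change -1.72, SE 0.07; limma adjusted p = 2.85e-11), and GPX3, a secreted peroxidase, from 25404, 22825 and 23548 to 3858 and 3970.4 (log2 change -2.61, SE 0.08; limma adjusted p = 7.29e-13). ME1, a source of NADPH (2.50), and MGST1 (1.50) rose.

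Cholesterol synthesis genes rose in 20 of 24 tested and fell in 2 (83.3% and 8.33%, against 21.7% and 19.9% of all genes tested), with a median of 0.58. MSMO1, a sterol oxidase, was at 1255, 1408 and 1390.1 normalised counts in GFP and 2947 and 3022 in Sox2 (log2 change 1.14, SE 0.07; limma adjusted p = 1.67e-09), and STARD4, a sterol carrier, rose by 1.02. The regulator SREBF2 was slightly lower (-0.30). Of 36 hypoxia and glycolysis genes 4 rose (2 without Sox2 replicate 1) and 21 fell (11.1% and 58.3%), at a median of -0.43. EPAS1, the hypoxia factor HIF-2 alpha, was at 7257, 6272 and 6288 in GFP and 1945 and 1958 in Sox2 (log2 change -1.75, SE 0.08; limma adjusted p = 7.98e-11), the lactate exporter SLC16A3 at 13016, 14769 and 14519.9 in GFP and 5516 and 5898 in Sox2 (log2 change -1.30, SE 0.07; limma adjusted p = 6.76e-10) and the glucose transporter SLC2A3 at 688, 687 and 675 in GFP and 236 and 236 in Sox2 (log2 change -1.53, SE 0.12; limma adjusted p = 5e-08). Among glycolytic enzymes ENO1 (-0.76) and LDHA (-0.76) fell, and GAPDH did not pass (-0.07). The 4 rises of this list were ANGPTL4 (log2 change 2.48), ADM (1.07), PFKFB4 (0.67) and HK1 (0.25). PFKFB4 did not pass without GFP replicate 3 (limma adjusted p = 0.0883). In the ATF4 and serine list 8 rose and 10 fell of 25 (32% and 40%). PSAT1, a serine synthesis enzyme, was at 198, 200.3 and 205 in GFP and 1447 and 1211 in Sox2 (log2 change 2.71, SE 0.13; limma adjusted p = 1.32e-10), and the list's rises numbered 5 without GFP replicate 2 and 4 without Sox2 replicate 1, its falls 6 without Sox2 replicate 2. The stress genes DDIT4 (-2.13), CEBPB (-1.76) and DDIT3 (-1.72) fell.

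**Figure D4:**
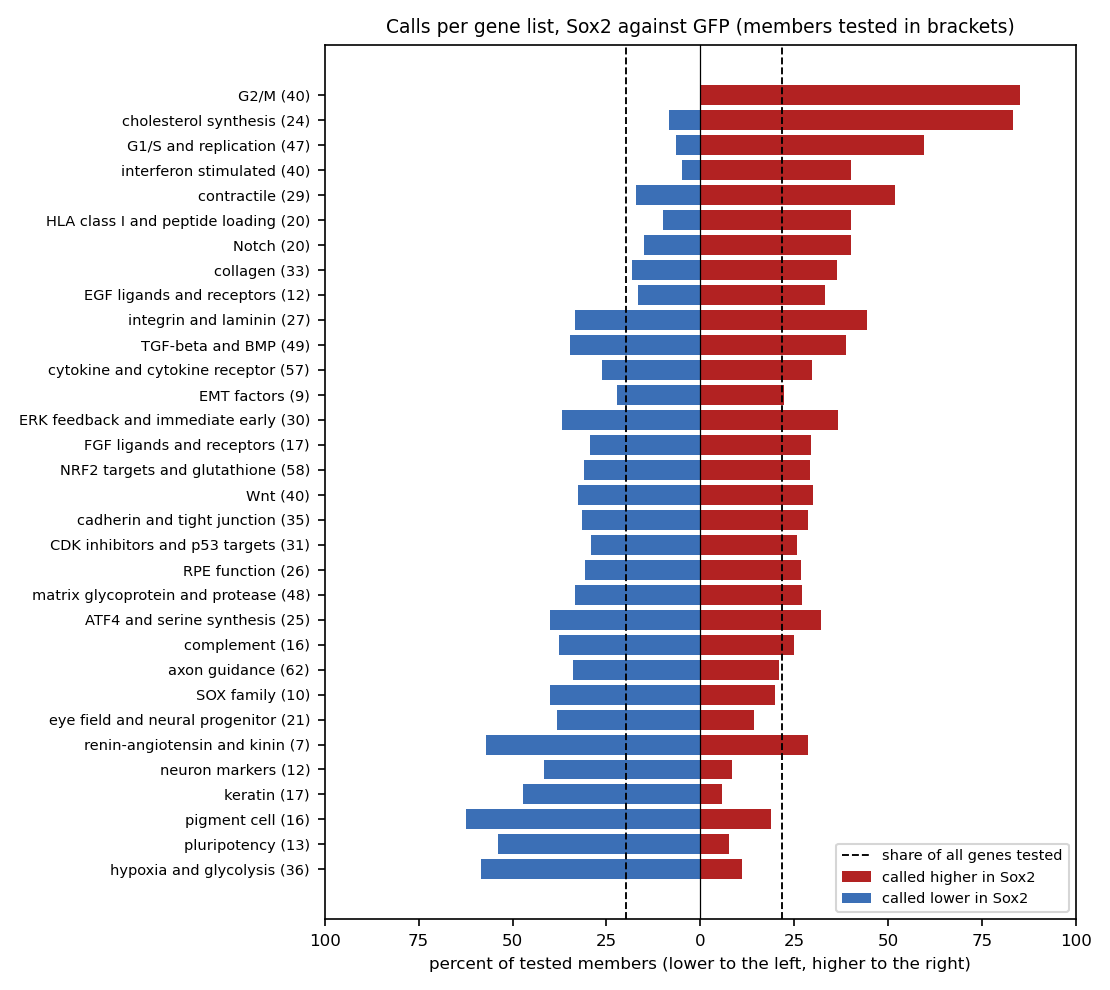
Share of the tested members of each gene list that limma called higher (right, red) or lower (left, blue) in the Sox2 line, for lists with at least 7 members tested. Dashed lines mark the shares over all genes tested (21.7% higher, 19.9% lower), and the number tested stands in brackets. The G2/M list (34 of 40 higher) and the cholesterol list (20 of 24 higher) reach farthest right, and the pigment list (10 of 16 lower) farthest left.

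The Sox2 line was also compared with the other lines. By limma 6283 genes (33.4%) passed against the Oct4 line and 7673 (40.8%) against the Klf4 line. The Sox2 line was above GFP, Oct4 and Klf4 alike in 1310 genes (6.96%) and below them in 1220 (6.48%). All 12 of the largest rises, SOX2 included, were among the 1310 and all 12 of the largest falls among the 1220, although their choice by the GFP comparison already fixed 1 of the 3 calls. Of the pigment genes tested 9 of 16 were below each of these lines, and 0 of 40 G2/M genes were above each of them.

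IL7R was at 79.0 and 75.5 normalised counts in the Oct4 line and 4.63 and 3.43 in the Klf4 line, against 3192 and 2754 in Sox2, a log2 difference of 5.24 (limma adjusted p = 0.000134) and 9.21 (limma adjusted p = 2.13e-07). INHBA was at 209 and 264 in Oct4 and 34.7 and 52.6 in Klf4 (log2 difference from Oct4 2.82; limma adjusted p = 6.81e-06), so the Oct4 libraries lay between GFP and Sox2. TYR was at 29.0 and 60.7 in Oct4 and 403 and 217 in Klf4 (log2 difference from Oct4 -1.58; limma adjusted p = 0.00578), with the Oct4 libraries again in between.

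The OSK line, which also carried Sox2, differed from the Sox2 line in 7620 genes (40.5%). OSK replicate 1 listed 32493 features above 0, against 26428 in OSK replicate 2. It held reads of 18.02% of the olfactory receptor features, against 6.51% in OSK replicate 2. SOX2 was at 17764 and 17582 normalised counts in OSK against 29106 and 29141 in Sox2 (OSK minus Sox2 log2 -0.72; limma adjusted p = 0.008). IL7R was at 17.3 and 14.3 in OSK (OSK minus Sox2 log2 -7.47; limma adjusted p = 2.66e-06), CALHM4 at 1.08 and 1.10 and TLR4 at 51.0 and 62.7 (OSK minus Sox2 log2 -6.01; limma adjusted p = 8.13e-11). Both OSK libraries were thus far below both Sox2 libraries for these 3 genes. TYR was at 108 and 64.9 in OSK and PMEL at 868 and 749 (OSK minus Sox2 log2 2.57; limma adjusted p = 1.03e-07), between Sox2 and GFP. These comparisons share the Sox2 libraries with the comparison against GFP.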

How the data were processed

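PolyA RNA of 11 ARPE-19 libraries in 5 groups was sequenced. The deposited table lists 60605 features with signal values: per the labels these are normalised counts, and per the submitters' processing notes STAR 2.7.1a and featureCounts 1.6.2 were used, with GRCh38, hg38, GRCm38 and mm10 named as builds without a role. The step between counts and deposited values is not given in the sources used here. Every value was a whole multiple of 1 step per library (100% of values up to 200 within 0.01 of a whole multiple), so whole reads were recovered and totals given as depth. Fewer reads give wider counting error, and 3 reads were used as the floor.

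Log2(value + 1) was fitted with limma 3.58.1 (R 4.3.3), with 1 mean per group over all 11 libraries, a trend in the prior variance and Benjamini-Hochberg adjustment over the 18828 genes that reached 10 in 2 or more libraries. The call threshold was an adjusted p of 0.05, and fold changes understate the change of low genes. Alternatives were edgeR 4.0.16 (TMM or median-of-ratios factors) and DESeq2 1.42.0 on the recovered reads, TMM scaling, pseudocounts of 0.5 and 5, other filters, only the groups compared, a replicate block and leaving out each library; leaving out Oct4, Klf4 and OSK libraries was added after seeing the data. The limma script was tested on simulated data.

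The comparison, gene lists and named genes were chosen with earlier results of these data known. Named were SOX2, POU5F1 and KLF4, the 12 largest rises and 12 largest falls with a group mean of at least 150 and no overlap, up to 4 called members each way per list with a group mean of at least 50, and a few defining members. Promoters were those of the 4 largest rises and the 4 largest pigment falls matched in the RefSeq table. Chosen after their values were seen were neighbours of named genes, markers at or near 0, and BAMBI, BDKRB1, BDKRB2, BMP2, BMP4, CD14, CDKN1A, CHRD, EGR1, ENO1, ETV5, FST, GAPDH, GPNMB, GPR143, GRHL1, HES1, ID3, ID4, KRT8, KRT18, LDHA, LHX2, MLANA, MLPH, MYC, RAB32, SLC45A2, SMAD6, TGFB1, TGFBI, TGFBR2 and VEGFA. Some members of the lists are counted but not reported by name here.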

Additional observations from a re-analysis of the deposited data

How the results depend on the processing

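The number of genes called between Sox2 and GFP (7824) was 7834 with edgeR and TMM, 7829 with edgeR and median-of-ratios factors, 6862 with DESeq2, 7799 with TMM scaling in limma, 7809 and 7819 with pseudocounts of 0.5 and 5, 6677 with no filter, 7317 with the filter at 50 and 7161 with only the groups compared. Leaving out 1 library gave 5837 (without Sox2 replicate 1) to 7948 (without GFP replicate 1). With the replicate number as a block 7051 genes were called. The deviations of same-numbered GFP and Sox2 libraries correlated at 0.0307 and 0.0111 across genes, which gave no sign of pairing between these groups. For same-numbered GFP and Klf4 libraries the values were -0.0491 and -0.0315. Same-numbered GFP and OSK libraries, which are in the same fit, correlated at 0.435 and 0.31, and the cause was not tested. Of 248 named genes, 248 kept their direction and side of the threshold with edgeR and TMM, 244 with DESeq2, 241 with the block, 242 without GFP replicate 1, 231 without Sox2 replicate 1 and 228 without Sox2 replicate 2. The sign turned for POU5F1 without Sox2 replicate 2 (log2 change 0.10, limma adjusted p = 0.699) and for JAK3 without GFP replicate 1 (0.01, limma adjusted p = 0.994), and over all left-out libraries these genes ranged from -0.60 to 0.10 and from -0.94 to 0.01; the cause was not tested. With 2 Sox2 libraries, depth and replicate number limit calls for genes near the filter, and a gene that did not pass is not shown to be unchanged.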
